A study of Mus musculus with 12 samples.

Results

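The genotype effect common to 2 states of mouse long-term haematopoietic stem cells (LT-HSCs) was described: the genes that differed between Trim47-/- and wild-type cells in the same direction after 5-fluorouracil (5-FU) and without treatment. LT-HSCs are the rare bone marrow cells that can rebuild the whole blood system for life, and most of them rest outside the cell cycle. Trim47 encodes a tripartite-motif protein, a family of RING-type E3 ubiquitin ligases of which several members act in innate immune signalling. 5-FU is a pyrimidine analogue that kills cycling marrow cells and drives the surviving stem cells into division. In resting marrow, granule proteins, eosinophil proteins and platelet proteins are made by the maturing myeloid and megakaryocytic cells, and low levels of their transcripts can be read in stem and progenitor cells.

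Bulk poly(A) RNA-seq of bone marrow LT-HSCs was used, with 4 groups of 3 samples: Trim47-/- mice after 10 days of 5-FU, wild-type mice after 10 days of 5-FU, untreated Trim47-/- mice and untreated wild-type mice. All 12 samples of the series entered, 6 of each genotype. The labels do not say which part of Trim47 was deleted, nor the strain, age, sex or sorting gate, nor whether replicates were separate mice. A gene was counted as a member when its genotype difference passed an adjusted p of 0.05 in both states with the same sign, in edgeR's quasi-likelihood test with Benjamini-Hochberg adjustment over all genes tested. Of 28999 genes in the table, 16319 had enough reads to be tested and 583 were members.

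The files held total counts of 13919649 to 13953510 per sample in 5-FU-treated Trim47-/- cells, 15111811 to 15151589 in 5-FU-treated wild-type cells, 20661120 to 20703198 in untreated Trim47-/- cells and 14828152 to 14885673 in untreated wild-type cells. Values are given as CPM (counts scaled to the size of each library) after TMM scaling. Replicates lay close to counting noise: between 11.7% and 13% of genes differed among the 3 samples of a group beyond it, where 1% would by chance. The p-values therefore measure only the spread between these samples, which may be technical. The stem cell label was checked against 40 LT-HSC genes, all of which were tested: Kit was at 295 to 498 CPM, Hlf at 55.6 to 291 CPM, Mecom at 42.5 to 79.0 CPM and Procr at 19 to 46.3 CPM over the 12 samples. Markers of other cells were also read, among them the monocyte receptor gene Csf1r at 52.8 to 138 CPM and the haemoglobin gene Hba-a1 at 32 to 172 CPM. In 5-FU-treated Trim47-/- samples the LT-HSC genes summed to 3572 to 3634 CPM and the neutrophil markers to 7179 to 7533 CPM. In untreated samples of both genotypes these sums were 4082 to 4836 CPM and 3688 to 3874 CPM. The purity of the samples was not tested. In bulk samples, fewer cells of a type and less RNA per cell cannot be told apart.

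Trim47 itself (ENSMUSG00000020773; GRCm38 chr11:116105752-116127210, minus strand) was lower in Trim47-/- cells on average over the states, by a log2 change of -0.97 ± 0.08 (SE; edgeR adjusted p = 6.68e-06). It had 10.1, 12.2 and 11.6 CPM in 5-FU-treated Trim47-/- samples, against 38.1, 33.3 and 34.7 CPM in 5-FU-treated wild-type samples. It had 23.7, 18.9 and 16.6 CPM in untreated Trim47-/- samples, against 24.6, 23.8 and 24.7 CPM in untreated wild-type samples. All 6 Trim47-/- samples were below all 6 wild-type samples, but reads over the gene remained in every knockout sample. The annotated span of Trim65 overlaps that of Trim47 on the same strand, so some of these reads may belong to Trim65. The Trim47 difference passed the test after 5-FU (log2 change -1.64, adjusted p = 5.5e-07). It did not pass in untreated cells (log2 change -0.31, adjusted p = 0.0632), so Trim47 was not a member. Without untreated Trim47-/- replicate 1 the untreated difference passed (adjusted p = 0.0046).

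The members were a minority of the genes that responded to genotype, and they changed by little. Averaged over the states, 5442 genes differed (33.3% of those tested), 2939 higher (18%) and 2503 lower (15.3%) in Trim47-/- cells. After 5-FU 8933 genes differed (54.7%), 4434 of them higher (27.2%) and 4499 lower (27.6%). In untreated cells 5392 genes differed (33%), 2873 higher (17.6%) and 2519 lower (15.4%). Of 3971 genes called in both states, 583 went the same way (3.57% of genes tested), 348 higher (2.13%) and 235 lower (1.44%), and 3388 went opposite ways (20.8%).

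The size of the genotype difference itself differed between states for 8957 genes (54.9%, interaction test in edgeR, adjusted p under 0.05). Across the 16319 genes, the log2 changes in the 2 states, which share no samples, had a Pearson correlation of -0.26 and a Spearman correlation of -0.48, given as a description since genes are not independent replicates. Only 32.9% of genes had the same sign in both. Of the 5442 average calls, 583 were members, 1424 were called with opposite signs, 2686 were called only after 5-FU, 632 only in untreated cells and 117 in neither state alone. An average over the states therefore mostly named genes that were not called in both states with the same sign.

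**Figure D1:**
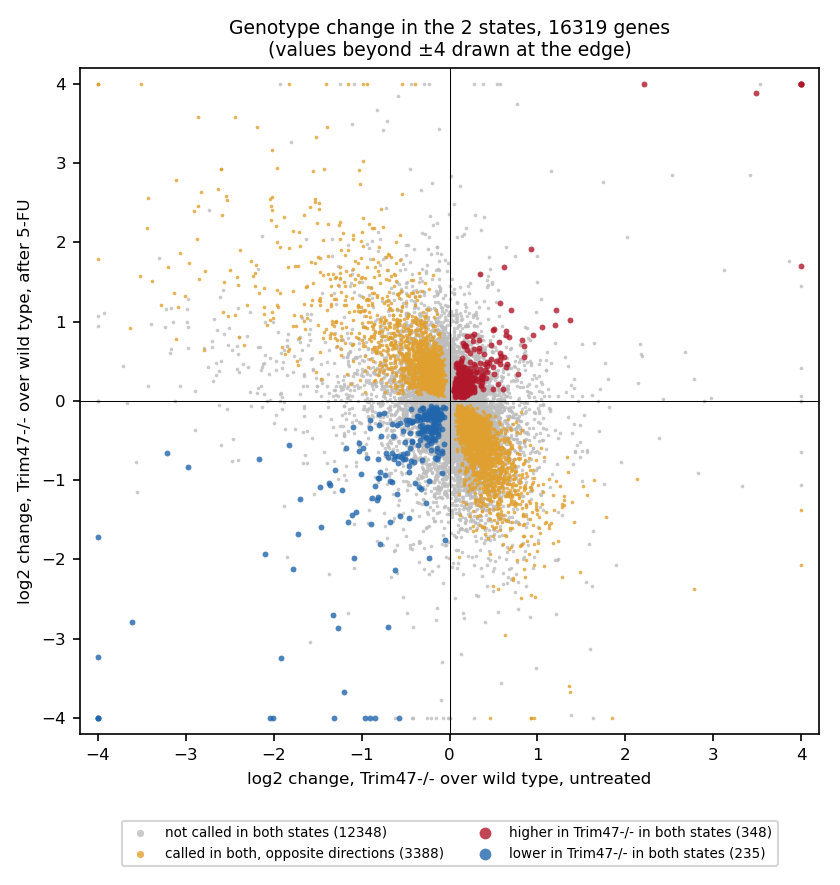
Log2 change of each tested gene, Trim47-/- over wild type, after 5-FU (vertical axis) against untreated (horizontal axis). The 348 genes higher in both states and the 235 lower in both lie in the upper right and lower left, and the 3388 genes called with opposite signs fill the other quadrants.

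The median of the smaller of the 2 log2 changes was 0.15 among the 348 higher members and 0.25 among the 235 lower members, beside 0.31 among the genes called with opposite signs. A change of at least 1.5-fold in each state was found for 20 higher and 62 lower members, of which 13 and 50 had a mean under 10 CPM. In 530 of the 583 members the changes in the 2 states were within 1.5-fold of each other, and the interaction test called 166 of these 530 and 203 of the 583. All 6 Trim47-/- samples lay above all 6 wild-type samples for 195 tested genes (1.19%), of which 128 were higher members, and below them for 98 tested genes (0.601%), of which 59 were lower members. Just inside the threshold lay Brd2, Ripor2 and Hnrnpk, with adjusted p-values of 0.0495, 0.0492 and 0.0491 in the untreated state, and just outside it lay Il18rap and Hmgn5 at 0.0505 in the untreated state and Osbpl9 at 0.051 after 5-FU.

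The split into higher and lower members moved with the processing. It was 175 higher and 186 lower with DESeq2's test, 194 and 229 when each state was fitted with its own 6 samples, and 225 and 253 without 5-FU-treated wild-type replicate 3. With the 3 samples of each group summed to 1, which left 1 residual degree of freedom, the average effect called 0 genes. An unadjusted p under 0.05 was found for 126 genes (0.772% of those tested), a smaller share than that threshold.

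The higher members included many genes of neutrophil granules. Of 20 neutrophil markers tested, 8 (40%) were higher in Trim47-/- cells in both states. Another 4 (20%) went opposite ways and 0 were lower in both. Over all genes 2.13% were higher in both, 1.44% lower in both and 20.8% opposite. The median average log2 change of the list was 0.34, beside 0.00 over all genes. The 8 were Ltf, Lcn2, Ngp, Camp, Cd177, S100a8, S100a9 and Elane.

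Ltf encodes lactoferrin, the iron-binding protein of secondary granules. It had 188, 187 and 193 CPM in 5-FU-treated Trim47-/- samples, against 87.2, 79.3 and 90.8 CPM in 5-FU-treated wild-type samples (log2 change 1.14, edgeR adjusted p = 8.2e-09). In untreated cells it had 43.2, 46.4 and 47.2 CPM in Trim47-/- samples, against 29.0, 27.4 and 27.5 CPM in wild-type samples (log2 change 0.70, adjusted p = 2.2e-06). Within each state the genotypes did not overlap, which was required for naming a gene by the size of its change. Both groups after 5-FU were above both untreated groups.

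Ngp encodes neutrophilic granule protein, a cathelin-related protein of the same granules. It had 366, 364 and 378 CPM in 5-FU-treated Trim47-/- samples, against 199, 197 and 194 CPM in 5-FU-treated wild-type samples (log2 change 0.91, edgeR adjusted p = 1.6e-10). It had 127, 124 and 123 CPM in untreated Trim47-/- samples, against 86.7, 89.8 and 86.3 CPM in untreated wild-type samples (log2 change 0.51, adjusted p = 6.0e-08). The samples of each group differed by far less than the groups did.

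Lcn2, the siderophore-binding lipocalin, had 109, 98.7 and 106 CPM in 5-FU-treated Trim47-/- samples and 60.4, 55.6 and 59.9 CPM in 5-FU-treated wild-type samples. It had 21.6, 22.9 and 21.8 CPM in untreated Trim47-/- samples and 14.5, 13.7 and 14.2 CPM in untreated wild-type samples. Its log2 changes were 0.84 and 0.65. Camp, the antimicrobial peptide cathelicidin, had 65.3, 66.6 and 69.8 CPM in 5-FU-treated Trim47-/- samples and 39.3, 41.5 and 39.3 CPM in 5-FU-treated wild-type samples. It had 47.4, 47.4 and 51.3 CPM in untreated Trim47-/- samples and 33.4, 32.4 and 33.1 CPM in untreated wild-type samples. For Camp, unlike Lcn2, every Trim47-/- sample of either state was above every wild-type sample.

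The rest of the 8 are described by their log2 changes. Cd177, a neutrophil surface glycoprotein, had log2 changes of 0.70 after 5-FU and 0.47 untreated. S100a8, a subunit of calprotectin, had changes of 0.36 and 0.24, and Elane, the neutrophil elastase gene, of 0.43 and 0.17. S100a9, the other calprotectin subunit, had changes of 0.43 and 0.29, and its untreated call was lost without untreated Trim47-/- replicate 2 or 3 or untreated wild-type replicate 2 or 3 (adjusted p 0.0605, 0.0998, 0.0689 and 0.0862).

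The primary granule genes were split. Mpo (myeloperoxidase) averaged 3285 CPM in 5-FU-treated Trim47-/- cells and 1831 CPM in 5-FU-treated wild-type cells, but 1731 CPM in untreated Trim47-/- cells and 1899 CPM in untreated wild-type cells. Ctsg (cathepsin G) and Prtn3 (proteinase 3) were likewise higher after 5-FU and lower untreated, with log2 changes of 0.76 and -0.55 for Ctsg and 0.51 and -0.15 for Prtn3. The summed level of the 20 markers was 7179 to 7533 CPM in 5-FU-treated Trim47-/- samples and 4634 to 4713 CPM in 5-FU-treated wild-type samples. In untreated samples it was 3688 to 3747 CPM in Trim47-/- and 3742 to 3874 CPM in wild type. None of the 20 was at 0 in all samples, and the part of mature cells or of free RNA in these levels was not tested. Leaving out each sample in turn, or refitting both states with another scaling, test, filter, block or sample set, left 7 to 9 members of this list. At 1.5-fold in each state 2 were left, Ltf and Lcn2.

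Sequence before the start site was read for the granule genes and for the chemokine and cyclooxygenase genes described below, to set the members that moved most beside what their promoters share. RefSeq promoters (GRCm38.p6) were matched for 373 of the 583 members and 10589 of 16300 tested symbols. In the 250 bases before the start, the C/EBP motif TTNNGNAA, bound by factors that drive granulocyte genes, was found on either strand in 28.1% of the promoters of higher members, 27.2% of those of lower members and 29.1% of all. The motif was chosen after the granule genes had been seen. Shown with motif matches in capitals, 5′ to 3′, and cut where an annotated exon begins, are Ngp and Ltf with C/EBP matches, Cxcl2 with its NF-kB match and Ptgs2 with its C/EBP matches.

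Ngp, chr9:110419558-110419746, plus strand: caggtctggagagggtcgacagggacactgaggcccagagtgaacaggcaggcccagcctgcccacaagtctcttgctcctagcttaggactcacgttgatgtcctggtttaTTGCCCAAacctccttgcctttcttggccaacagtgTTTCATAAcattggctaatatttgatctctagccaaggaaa

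Ltf, chr9:111019042-111019270, plus strand: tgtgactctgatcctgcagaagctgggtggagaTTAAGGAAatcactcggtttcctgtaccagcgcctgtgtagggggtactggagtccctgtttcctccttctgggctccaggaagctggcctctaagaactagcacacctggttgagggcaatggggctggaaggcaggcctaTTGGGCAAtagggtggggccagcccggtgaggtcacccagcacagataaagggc

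Cxcl2, chr5:90903649-90903870, plus strand: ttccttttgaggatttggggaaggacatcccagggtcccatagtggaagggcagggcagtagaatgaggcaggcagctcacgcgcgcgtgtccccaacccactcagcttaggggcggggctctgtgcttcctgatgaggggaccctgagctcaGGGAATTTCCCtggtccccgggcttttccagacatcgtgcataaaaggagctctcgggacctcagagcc

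Ptgs2, chr1:150099781-150100030, plus strand: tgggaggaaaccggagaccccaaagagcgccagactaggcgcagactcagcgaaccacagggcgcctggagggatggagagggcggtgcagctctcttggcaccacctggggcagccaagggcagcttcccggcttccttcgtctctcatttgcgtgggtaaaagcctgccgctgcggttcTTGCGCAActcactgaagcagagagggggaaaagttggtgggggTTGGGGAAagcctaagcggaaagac

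Ngp, Ltf and Camp lie on chromosome 9, at chr9:110419747-110423012, chr9:111019271-111042767 and chr9:109847379-109849617. Camp had no C/EBP match in this window, and Lcn2 had 1. The other motifs searched are given with their share over all promoters, and no difference was tested. The AP-1 motif TGANTCA was in 2.88% of higher, 6.67% of lower and 4.64% of all promoters. The NF-kB motif was in 5.76% of higher, 9.44% of lower and 7.05% of all, and CRE (TGACGTCA) in 1.44%, 3.33% and 2.47%. The ETS motif CCGGAAG was in 12.2% of higher, 11.1% of lower and 13% of all promoters. The GATA motif AGATAA was in 8.27% of higher, 8.33% of lower and 6.35% of all promoters. The E-box CACGTG was in 7.55% of higher, 7.78% of lower and 8.2% of all promoters. Some genes have several promoters in these counts, and a match describes letters, not binding.

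**Figure D2:**
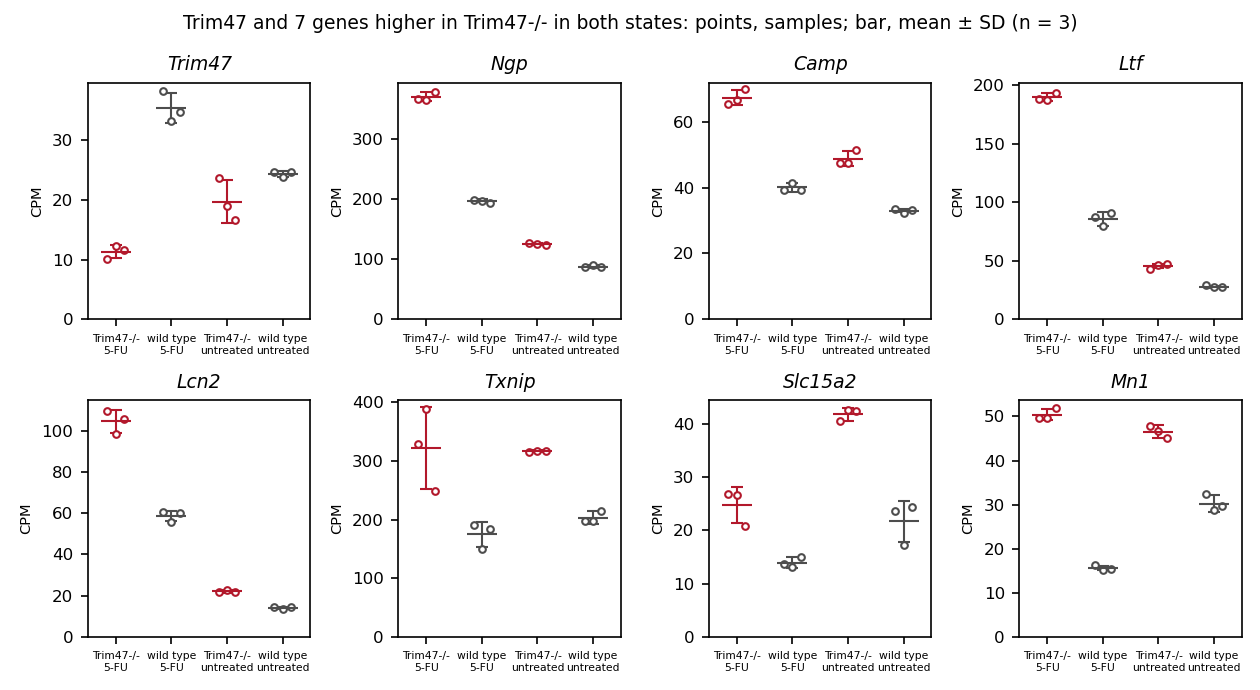
CPM in each sample (points) with group mean and SD (n = 3) for Trim47 and 7 higher members. The 7 were picked for having the 3 Trim47-/- samples above the 3 wild-type samples within both states, as 336 of the 348 higher members had. Trim47 is lower in Trim47-/- samples.

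Besides the granule genes, the higher members with the largest change at 10 CPM or more were Slc15a2, Txnip, Mn1, Trmt6, Fzd7, Ak4 and Zfp319. Mn1, a transcriptional regulator that is an oncogene in acute myeloid leukaemia, had 49.8, 49.7 and 51.9 CPM in 5-FU-treated Trim47-/- samples, against 16.2, 15.2 and 15.4 CPM in 5-FU-treated wild-type samples. It had 47.9, 46.7 and 45.1 CPM in untreated Trim47-/- samples, against 32.4, 28.7 and 29.6 CPM in untreated wild-type samples. All 6 Trim47-/- samples were above all 6 wild-type samples, with log2 changes of 1.69 after 5-FU and 0.62 untreated (edgeR adjusted p = 7.4e-10 and 4.8e-06).

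Txnip encodes the thioredoxin-interacting protein, a negative regulator of glucose uptake that is linked to stem cell quiescence. It had 329, 388 and 249 CPM in 5-FU-treated Trim47-/- samples, against 190, 150 and 184 CPM in 5-FU-treated wild-type samples. It had 314, 317 and 317 CPM in untreated Trim47-/- samples, against 197, 198 and 215 CPM in untreated wild-type samples. The samples after 5-FU were widely spread, but no Trim47-/- sample fell to the wild-type range of its state, as naming by size of change required. Slc15a2, a peptide transporter, averaged 24.8 ± 3.39 CPM in 5-FU-treated Trim47-/- cells and 14 ± 0.963 CPM in 5-FU-treated wild-type cells (SD, n = 3 each). In untreated cells it averaged 41.8 ± 1.16 CPM in Trim47-/- and 21.7 ± 3.93 CPM in wild type.

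The Wnt receptor gene Fzd7, the mitochondrial adenylate kinase gene Ak4 and the zinc finger gene Zfp319 had log2 changes of 0.43 to 0.53 after 5-FU and 0.45 to 0.50 untreated. Trmt6, a subunit of a tRNA methyltransferase, had 60.2, 56.5 and 57.0 CPM in 5-FU-treated Trim47-/- samples, against 24.1, 46.6 and 47.7 CPM in 5-FU-treated wild-type samples. In the wild type, replicate 1 was far below the others. The call of Trmt6 after 5-FU was lost without 5-FU-treated Trim47-/- replicate 1 (adjusted p = 0.0664) or replicate 3 (adjusted p = 0.0517).

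Among the lower members, the 12 of largest change included genes of inflammatory mediators. Cxcl2, a chemokine that attracts neutrophils, had 54.1, 55.6 and 55.0 CPM in 5-FU-treated Trim47-/- samples, against 87.2, 94.8 and 88.3 CPM in 5-FU-treated wild-type samples. It had 235, 227 and 235 CPM in untreated Trim47-/- samples, against 450, 446 and 442 CPM in untreated wild-type samples. Its log2 changes were -0.72 and -0.94 (edgeR adjusted p = 1.1e-08 and 3.3e-09). The genotypes did not overlap in either state, which was required for naming a gene by the size of its change. Both genotypes had less Cxcl2 after 5-FU than untreated.

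Ptgs2, which encodes the inducible cyclooxygenase, had 70.4, 68.6 and 68.8 CPM in 5-FU-treated Trim47-/- samples, against 111, 111 and 107 CPM in 5-FU-treated wild-type samples. It had 212, 225 and 221 CPM in untreated Trim47-/- samples, against 311, 306 and 306 CPM in untreated wild-type samples. The log2 changes were -0.66 and -0.49. Il10, an anti-inflammatory cytokine, had 2.31, 1.96 and 1.81 CPM in 5-FU-treated Trim47-/- samples, against 4.99, 4.87 and 4.37 CPM in 5-FU-treated wild-type samples. It had 14, 13.1 and 14 CPM in untreated Trim47-/- samples, against 24.7, 25.4 and 25.6 CPM in untreated wild-type samples. Cxcl1, a close relative of Cxcl2 named here after its values were seen, was a lower member too, with log2 changes of -1.53 and -1.16 at a mean of 1.22 CPM.

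Most other NF-kB genes were not lower in both states, as was true of most genes tested. Of 34 NF-kB targets and regulators tested, 3 were lower in both states (Cxcl2, Ptgs2 and Tnf), 0 were higher in both and 16 went opposite ways. The 3 were 8.82% of the list, beside 1.44% over all genes, and the 16 were 47.1%, beside 20.8%. After 5-FU 17 of the 34 were higher and 7 lower, and in untreated cells 1 was higher and 25 lower. Tnf had 99.0, 96.3 and 95.1 CPM in 5-FU-treated Trim47-/- samples and 109, 111 and 103 CPM in 5-FU-treated wild-type samples. It had 168, 171 and 168 CPM in untreated Trim47-/- samples and 290, 281 and 280 CPM in untreated wild-type samples, so its genotype difference was mainly in the untreated state. Of 48 type I interferon response genes, 1 (Dtx3l, a ubiquitin ligase) was lower in both (2.08%, near the share over all genes). Another 25 went opposite ways (52.1%, beside 20.8% over all genes).

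The immediate early genes are switched on within minutes of a stimulus. Among 32 tested, 7 (21.9%) were lower members, 0 higher members and 12 (37.5%) had opposite signs, beside 1.44%, 2.13% and 20.8% over all genes. The 7 were Dusp1, Klf2, Zfp36, Junb, Klf4, Fosl2 and Nr4a2. Klf2, a Krüppel-like factor of quiescent cells, had 578, 585 and 591 CPM in 5-FU-treated Trim47-/- samples, against 1208, 1169 and 1168 CPM in 5-FU-treated wild-type samples. It had 1774, 1778 and 1760 CPM in untreated Trim47-/- samples, against 2079, 2083 and 2081 CPM in untreated wild-type samples. The change was larger after 5-FU (log2 -1.02) than untreated (log2 -0.23).

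Dusp1, a phosphatase that turns off MAP kinases, fell by 1.99 and 0.23 on the log2 scale. Zfp36, which destabilises cytokine mRNAs, fell by 1.75 and 0.05, so its untreated change was small beside that after 5-FU even though both passed. Fosl2, an AP-1 subunit, had nearly equal changes of -0.31 and -0.32. Nr4a2 lost its untreated call without untreated Trim47-/- replicate 3 (adjusted p = 0.0619) or untreated wild-type replicate 3 (adjusted p = 0.0561). Fos, Jun and Egr1 were lower after 5-FU and higher untreated, with log2 changes of -1.97 and 0.11 for Fos, -1.02 and 0.17 for Jun and -1.00 and 0.28 for Egr1.

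**Figure D3:**
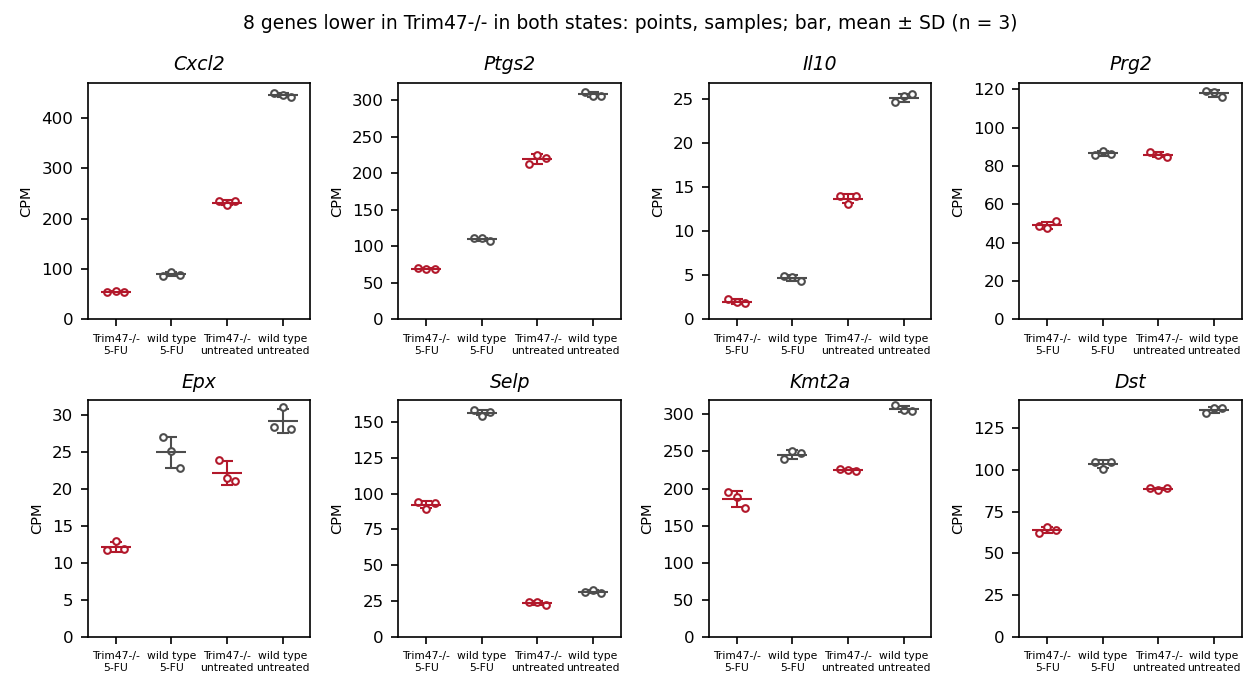
CPM in each sample (points) with group mean and SD (n = 3) for 8 lower members. The 8 were picked for having the 3 Trim47-/- samples below the 3 wild-type samples within both states, as 224 of the 235 lower members had. The states differ in level.

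Eosinophil granule genes were lower in Trim47-/- cells in both states. Of 15 markers of mast cells, basophils and eosinophils tested, 5 (33.3%) were lower in both, 0 higher in both and 4 (26.7%) opposite. Over all genes 1.44% were lower in both and 20.8% opposite. The 5 are eosinophil genes. Prg2, the major basic protein of eosinophil granules, had 48.7, 47.5 and 51.1 CPM in 5-FU-treated Trim47-/- samples, against 85.5, 87.9 and 86.2 CPM in 5-FU-treated wild-type samples. It had 87.0, 85.8 and 84.7 CPM in untreated Trim47-/- samples, against 119, 118 and 116 CPM in untreated wild-type samples. Its log2 changes were -0.82 and -0.46 (edgeR adjusted p = 3.6e-09 and 9.3e-07).

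Epx, the eosinophil peroxidase gene, had 11.7, 13 and 11.8 CPM in 5-FU-treated Trim47-/- samples, against 27, 25.0 and 22.8 CPM in 5-FU-treated wild-type samples. It had 23.9, 21.5 and 21 CPM in untreated Trim47-/- samples, against 28.3, 31 and 28.1 CPM in untreated wild-type samples. Prg3, a homologue of Prg2, had log2 changes of -1.01 and -0.68 at 1.38 to 4.91 CPM. The eosinophil ribonuclease genes Ear1 and Ear2 had changes of -1.43 and -1.11 and of -1.45 and -0.56, and Ear6, named after its values were seen, of -1.98 and -1.09. The Ear genes are near-identical copies whose reads may be split between them, so the values of each are uncertain.

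No mast cell or basophil gene of the list met the rule. Cpa3, a mast cell carboxypeptidase, had log2 changes of -0.48 and 0.28, and Hdc, which makes histamine, of 0.89 and -0.17. The summed level of the 15 markers was 568 to 631 CPM in 5-FU-treated Trim47-/- samples and 867 to 979 CPM in 5-FU-treated wild-type samples. It was 881 to 962 CPM in untreated Trim47-/- samples and 871 to 943 CPM in untreated wild-type samples, which overlapped. Kit, a mast cell marker that stem cells also express, was part of this sum. None of the 15 was at 0 in all samples, and the part of eosinophil-lineage cells in these values was not tested. All 5 lower calls held with each sample left out and in each refit of both states at the same threshold. With the samples summed by group none of the 5 passed. The lowest adjusted p of any gene in that edgeR fit was 0.9998, so it says nothing particular about these 5.

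Megakaryocyte and platelet genes had 6 lower members (31.6%), 0 higher members and 5 with opposite signs (26.3%) among 19 tested. Over all genes the shares were 1.44% lower and 20.8% opposite. Itga2b, the platelet integrin also found on stem cells, had 135, 138 and 134 CPM in 5-FU-treated Trim47-/- samples, against 184, 180 and 176 CPM in 5-FU-treated wild-type samples. It had 57.3, 60.6 and 56.5 CPM in untreated Trim47-/- samples, against 71.9, 72.2 and 75.3 CPM in untreated wild-type samples. Ppbp, a platelet chemokine, had 2.74, 2.68 and 2.61 CPM in 5-FU-treated Trim47-/- samples, against 4.61, 3.61 and 4.49 CPM in 5-FU-treated wild-type samples. It had 0.833, 0.687 and 0.684 CPM in untreated Trim47-/- samples, against 7.12, 7.07 and 6.43 CPM in untreated wild-type samples. For Ppbp the difference was far larger in untreated cells, with log2 changes of -0.66 and -3.21.

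The other 4 (Gp5, Gp1bb, Pf4 and Itgb3) lost a call on leaving out some samples, and 3 members of the list were left without 5-FU-treated Trim47-/- replicate 2 or without 5-FU-treated wild-type replicate 2. In those 2 cases Itgb3 had adjusted p-values of 0.0565 and 0.0691 after 5-FU, Gp1bb of 0.1 and 0.062 and Pf4 of 0.0521 and 0.0522. Gp1bb was also lost without 5-FU-treated wild-type replicate 1 (0.0554). Pf4 was lost without any 1 of the 6 samples after 5-FU (up to 0.108). Gp5 was lost untreated without untreated Trim47-/- replicate 1 or 2 (0.0723 and 0.067) or untreated wild-type replicate 2 (0.128). Selp (P-selectin, an adhesion molecule of platelets and endothelium) was among the 12 lower members of largest change. It had 94.3, 89.3 and 93.2 CPM in 5-FU-treated Trim47-/- samples, against 158, 155 and 157 CPM in 5-FU-treated wild-type samples. It had 24.1, 24.1 and 21.8 CPM in untreated Trim47-/- samples, against 31.3, 32.6 and 30.6 CPM in untreated wild-type samples. The summed platelet list was 1923 to 1938 CPM in 5-FU-treated Trim47-/- samples and 1671 to 1746 CPM in 5-FU-treated wild-type samples, and 1611 to 1702 CPM in untreated Trim47-/- samples and 1717 to 1773 CPM in untreated wild-type samples. The sum after 5-FU ran against the 6 lower members, and the part of megakaryocyte-lineage cells in them was not tested.

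The remaining lower members of largest change were Dst, Kmt2a, Isca1, Ankrd12, Zbtb37 and Pigb. Dst encodes dystonin, a linker of the cytoskeleton. It had 62.2, 66.1 and 63.7 CPM in 5-FU-treated Trim47-/- samples, against 105, 101 and 105 CPM in 5-FU-treated wild-type samples. It had 89.1, 88.1 and 89.1 CPM in untreated Trim47-/- samples, against 134, 137 and 137 CPM in untreated wild-type samples. All 6 Trim47-/- samples were below all 6 wild-type samples, and the interaction test did not call a difference between the log2 changes of -0.69 and -0.62 (adjusted p = 0.15).

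Kmt2a, the histone H3 lysine methyltransferase MLL1 that stem cells need, had 195, 189 and 174 CPM in 5-FU-treated Trim47-/- samples, against 239, 250 and 248 CPM in 5-FU-treated wild-type samples. It had 227, 226 and 224 CPM in untreated Trim47-/- samples, against 312, 306 and 305 CPM in untreated wild-type samples. It too separated all 12 samples by genotype, with log2 changes of -0.40 and -0.45 (edgeR adjusted p = 2.7e-06 and 3.1e-06). Isca1, an iron-sulfur cluster assembly factor, had log2 changes of -0.59 and -0.45.

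For Ankrd12, Pigb, Zbtb37 and Zfp422 the call depended on which samples entered. Ankrd12, an ankyrin repeat protein gene, had 28.5, 27.2 and 29.1 CPM in 5-FU-treated Trim47-/- samples, against 33.2, 50.3 and 51.8 CPM in 5-FU-treated wild-type samples. In untreated cells it had 35.3, 31.4 and 33.5 CPM in Trim47-/- samples, against 35.8, 53.6 and 54.9 CPM in wild-type samples. Its untreated call was lost without any 1 Trim47-/- sample of either state or without untreated wild-type replicate 2 or 3 (adjusted p 0.0508 to 0.138). Pigb, an enzyme of GPI anchor synthesis, lost its call after 5-FU without 5-FU-treated Trim47-/- replicate 1 or 3 or 5-FU-treated wild-type replicate 2 (0.0766, 0.0665 and 0.0618). Zbtb37, a zinc finger gene, lost a call without any of 5 samples: 5-FU-treated Trim47-/- replicate 2 (0.068), untreated Trim47-/- replicate 3 (0.085), 5-FU-treated wild-type replicate 1 (0.0827), and untreated wild-type replicates 1 (0.0601) and 3 (0.0645).

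The zinc finger gene Zfp422 had 20.6, 19.4 and 19.8 CPM in 5-FU-treated Trim47-/- samples, against 105, 17.2 and 106 CPM in 5-FU-treated wild-type samples. It had 19.6, 21.7 and 20.2 CPM in untreated Trim47-/- samples, against 121, 121 and 21.1 CPM in untreated wild-type samples. In each state 1 wild-type sample was at the Trim47-/- level, so the genotypes overlapped in both states. The call was lost without any 1 of the 10 samples other than those 2 (adjusted p 0.0731 to 0.0939). Ccn1, a matricellular protein gene, had log2 changes of -0.97 and -0.80 at 2.46 to 11.3 CPM.

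All 13 protein genes of the mitochondrial genome were higher in Trim47-/- cells in both states, by small amounts. Their median log2 change was 0.18 after 5-FU, 0.14 untreated and 0.17 averaged over the states. At 1.5-fold in each state 0 of the 13 were left. Of the other mitochondrial genes tested, the 2 rRNA genes were called in both states with opposite signs, and 0 of the 5 tRNA genes were members. mt-Cytb, the cytochrome b gene, had 2035, 2035 and 2050 CPM in 5-FU-treated Trim47-/- samples, against 1759, 1751 and 1761 CPM in 5-FU-treated wild-type samples. It had 2292, 2293 and 2252 CPM in untreated Trim47-/- samples, against 1968, 1943 and 1936 CPM in untreated wild-type samples. The log2 changes of 0.22 and 0.23 were larger than the spread between samples (edgeR adjusted p = 3.7e-08 and 8.1e-08).

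mt-Nd1, mt-Nd2 and mt-Nd5, subunits of complex I, had log2 changes of 0.21 to 0.34 after 5-FU and 0.12 to 0.14 untreated. mt-Co1, the most abundant at 8882 CPM or more in every sample, had changes of 0.10 and 0.09. Transcripts of the mitochondrial genome took 2.85% to 2.91% of counts in 5-FU-treated Trim47-/- samples, against 2.67% to 2.74% in 5-FU-treated wild-type samples. They took 2.84% to 2.85% in untreated Trim47-/- samples, against 2.58% to 2.59% in untreated wild-type samples. The mitochondrial share can also move with RNA quality, whose part was not tested. Between 10 and 13 of the 13 stayed members over the refits of both states and each sample left out. Under DESeq2 size factors mt-Nd3, mt-Nd6 and mt-Atp8 lost the untreated call (0.0507, 0.0617 and 0.0822). The untreated call of mt-Nd3 was also lost without untreated Trim47-/- replicate 1 (0.0783) or untreated wild-type replicate 1 or 2 (0.0621 and 0.0638). That of mt-Atp8 was lost without untreated Trim47-/- replicate 1 or 2 (0.0971 and 0.0947) or untreated wild-type replicate 2 or 3 (0.104 and 0.106). mt-Nd6 lost a call without any 1 of 8 samples: 5-FU-treated Trim47-/- replicate 3, 5-FU-treated wild-type replicates 2 and 3, all 3 untreated Trim47-/- samples, and untreated wild-type replicates 1 and 2 (0.0567 to 0.128). The nuclear genes of oxidative phosphorylation had 0 members among 74 tested, beside 3.57% over all genes. Opposite signs were found for 12 of them (16.2%), near the 20.8% over all genes. After 5-FU 46 of the 74 were higher, and in untreated cells 4 were higher and 12 lower.

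DNA replication genes were the other group with many higher members. Of 40 genes of the G1/S transition and DNA replication, 14 (35%) were higher in Trim47-/- cells in both states. Another 3 (7.5%) were opposite and 0 lower in both. Over all genes 2.13% were higher in both and 20.8% opposite. Mcm6, a subunit of the replicative helicase, had 495, 480 and 467 CPM in 5-FU-treated Trim47-/- samples, against 383, 393 and 391 CPM in 5-FU-treated wild-type samples. It had 493, 492 and 498 CPM in untreated Trim47-/- samples, against 443, 425 and 436 CPM in untreated wild-type samples. Every Trim47-/- sample was above every wild-type sample.

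Mcm2, of the same helicase, had log2 changes of 0.23 and 0.18, and Rrm1, of ribonucleotide reductase, of 0.28 and 0.09. Mcm3, Mcm4, Lig1 (DNA ligase), Pold1 (DNA polymerase delta), E2f2 and Uhrf1 were members too, each with changes of 0.15 to 0.38 after 5-FU and 0.15 to 0.23 untreated. Mcm5 had changes of 0.47 and 0.07, and its untreated call was lost without 5-FU-treated wild-type replicate 3 (adjusted p = 0.0608). Without that sample 10 of the 40 were members. After 5-FU 32 of the 40 were higher and 0 lower, and in untreated cells 15 were higher and 3 lower. Of 35 genes of G2/M and mitosis 0 were members and 6 (17.1%) went opposite ways, both near the 3.57% and 20.8% over all genes.

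Of 40 LT-HSC genes, 2 (Txnip and Ifitm1, an interferon-induced membrane protein gene) were higher in both states, 0 lower in both and 18 opposite. The members were 5% of the list, near the 3.57% over all genes, and the opposite genes 45%, beside 20.8%. Of the 40, 31 were lower after 5-FU and 19 were higher in untreated cells. Hlf, a transcription factor of LT-HSCs, averaged 74.6 CPM in 5-FU-treated Trim47-/- cells and 205 CPM in 5-FU-treated wild-type cells, but 252 CPM in untreated Trim47-/- cells and 170 CPM in untreated wild-type cells. Of 44 genes of the TRIM family, 3 (6.82%) were higher in both (Trim8, Trim13 and Trim28) and 16 (36.4%) opposite. Over all genes these shares were 2.13% and 20.8%. Trim13 had log2 changes of 0.76 and 0.27 and Trim8 of 0.28 and 0.31. Trim28, the corepressor KAP1, had changes of 0.16 and 0.05, and its untreated call was lost without 5-FU-treated wild-type replicate 3 (0.125) or with DESeq2 size factors (0.0999).

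Of 25 genes of the unfolded protein response, 3 (12%) were higher in both states and 15 (60%) went opposite ways. Over all genes these shares were 2.13% and 20.8%. The 3 were the endoplasmic reticulum chaperone genes Hspa5, Dnajc3 and Canx. Hspa5 had 1174, 1131 and 1200 CPM in 5-FU-treated Trim47-/- samples, against 967, 970 and 967 CPM in 5-FU-treated wild-type samples. It had 1880, 1865 and 1832 CPM in untreated Trim47-/- samples, against 1628, 1627 and 1617 CPM in untreated wild-type samples. The proteasome (37 genes), the NRF2 response (30), lysosome and autophagy (37) and the erythroid markers (22) held 0 members, which in lists of this length is near the 3.57% over all genes. Of these lists 11, 5, 11 and 9 genes went opposite ways (29.7%, 16.7%, 29.7% and 40.9%), beside 20.8% over all genes.

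**Figure D4:**
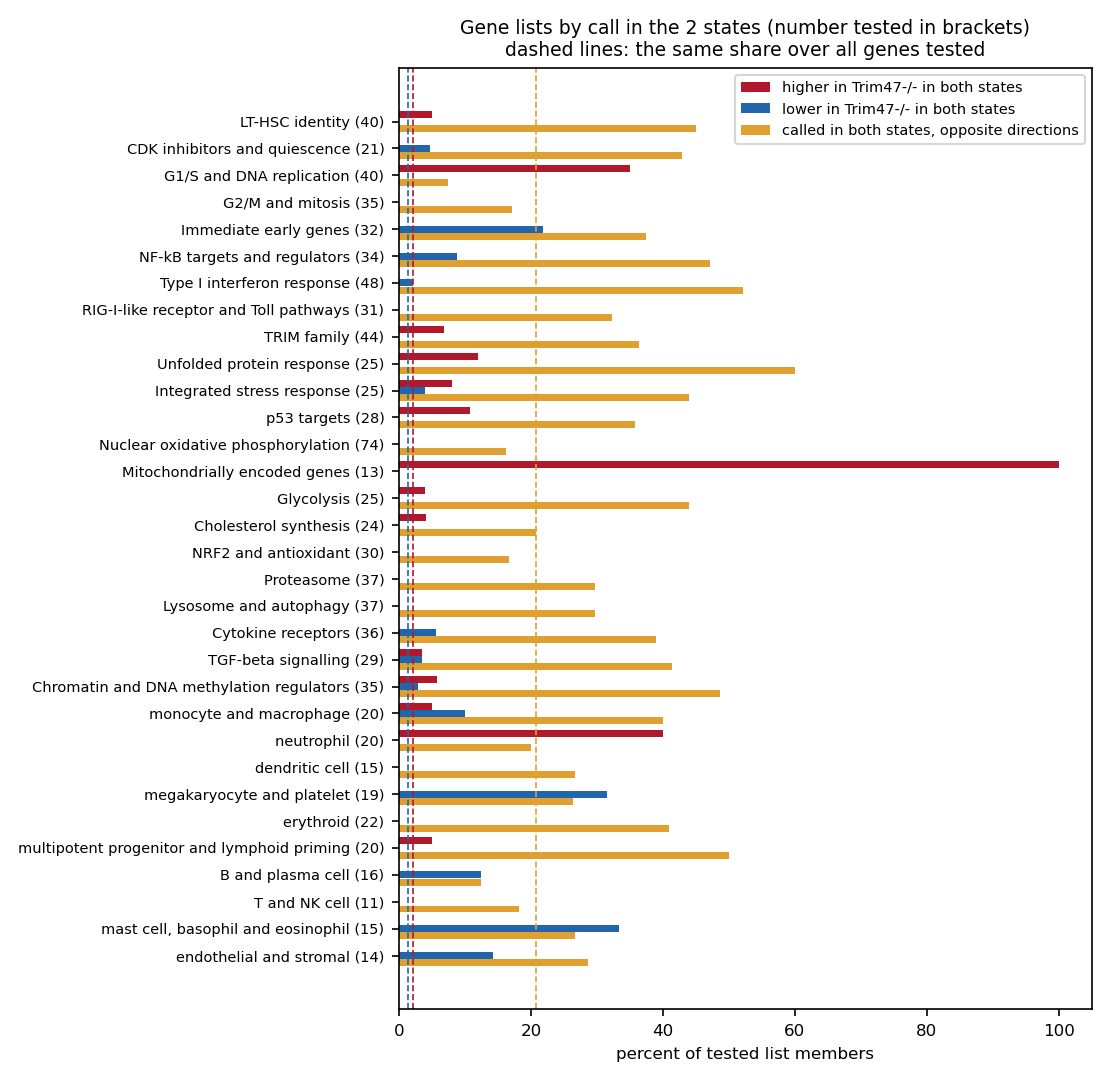
Share of the tested members of each gene list that were higher in both states, lower in both, or called in both with opposite signs, with the share over all genes as dashed lines. The mitochondrially encoded, neutrophil and DNA replication lists have the longest bars for higher genes, and the eosinophil, platelet and immediate early lists for lower genes.

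Immunoglobulin segments made up much of the large changes. Of the 82 members with at least 1.5-fold in each state, 10 of the 20 higher and 24 of the 62 lower were immunoglobulin genes. Of 182 such genes tested, 11 were higher in both states, 33 lower in both and 46 opposite. Members were 22.6% of the 168 variable segments and 54.5% of the 11 constant genes, beside 3.57% over all genes. Over all genes 20.8% were opposite. Ighg3, a heavy chain constant gene, had 1.59, 2.03 and 2.76 CPM in 5-FU-treated Trim47-/- samples and 0 in the 3 5-FU-treated wild-type samples. It had 3.73, 3.44 and 2.54 CPM in untreated Trim47-/- samples, and 0.0692, 0 and 0 CPM in untreated wild-type samples.

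Ighv11-2, a heavy chain variable segment, showed the opposite. It was at 0 in the 3 5-FU-treated Trim47-/- samples, against 1.26, 1.39 and 1.14 CPM in 5-FU-treated wild-type samples. It had 0.049, 0.0982 and 0.0977 CPM in untreated Trim47-/- samples, against 3.87, 4.78 and 3.18 CPM in untreated wild-type samples. Both segments were named after their values were seen, and segments are similar in sequence, so reads may be shared between them. The summed level of the 182 genes was 1016 to 1030 CPM in 5-FU-treated Trim47-/- samples, against 1376 to 1443 CPM in 5-FU-treated wild-type samples. It was 3773 to 3794 CPM in untreated Trim47-/- samples, against 4152 to 4190 CPM in untreated wild-type samples. Of 16 markers of B and plasma cells, 2 (Pax5 and Mzb1) were lower in both and 2 opposite. Each was 12.5% of the list, beside 1.44% and 20.8% over all genes. Pax5 lost its untreated call without untreated Trim47-/- replicate 1 or 2 (adjusted p 0.121 and 0.0797) or untreated wild-type replicate 1 or 3 (0.0758 and 0.133). Mzb1 lost a call without any 1 of 9 samples, which were all but replicate 2 of 5-FU-treated Trim47-/-, 5-FU-treated wild type and untreated wild type (0.0509 to 0.159). The part of B-lineage cells in the immunoglobulin values was not tested.

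By gene class, 284 of 12751 protein-coding genes were higher members and 171 lower members, together 3.57%, the share over all genes. Of 1587 processed pseudogenes 43 were higher (2.71%) and 0 lower, beside 2.13% and 1.44% over all genes. The higher share was near that over all genes, and reads of pseudogenes may belong to their parent genes. By chromosome, chromosome 12 (6.4% of 656 tested genes) and chromosome 6 (4.93% of 913), which carry the heavy and kappa immunoglobulin loci, and the mitochondrial genome (65% of 20) had the highest shares of members.

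The share of members around Trim47 was near that over all genes. Within 1 Mb, 2 of 61 tested genes (3.28%) were members, beside 3.57% of all, and 17 went opposite ways, beside 20.8% of all. They were Nup85, a nuclear pore gene, with log2 changes of 0.29 and 0.14, and Slc9a3r1, a scaffold protein gene, with 0.24 and 0.14. Within 5 Mb 3.11% of 161 and within 10 Mb 3.69% of 217 were members. Trim65, the neighbouring TRIM gene, lies at chr11:116121846-116131128 on the minus strand, and its annotated span overlaps that of Trim47. Reads in the overlap could belong to either gene, and their part in the values of both was not tested. Trim65 had 15.3, 13.5 and 17.6 CPM in 5-FU-treated Trim47-/- samples, against 22.1, 25.3 and 23.3 CPM in 5-FU-treated wild-type samples. It had 22.9, 26.8 and 25.0 CPM in untreated Trim47-/- samples, against 21.9, 20.5 and 19.5 CPM in untreated wild-type samples. Its log2 changes of -0.61 and 0.27 had opposite signs. Its untreated call was lost without any 1 of 7 samples: 5-FU-treated Trim47-/- replicate 1 (adjusted p = 0.0567), 5-FU-treated wild-type replicate 3 (0.0795), untreated Trim47-/- replicates 2 (0.145) and 3 (0.095), and untreated wild-type replicates 1 (0.0527), 2 (0.102) and 3 (0.14).

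**Figure D5:**
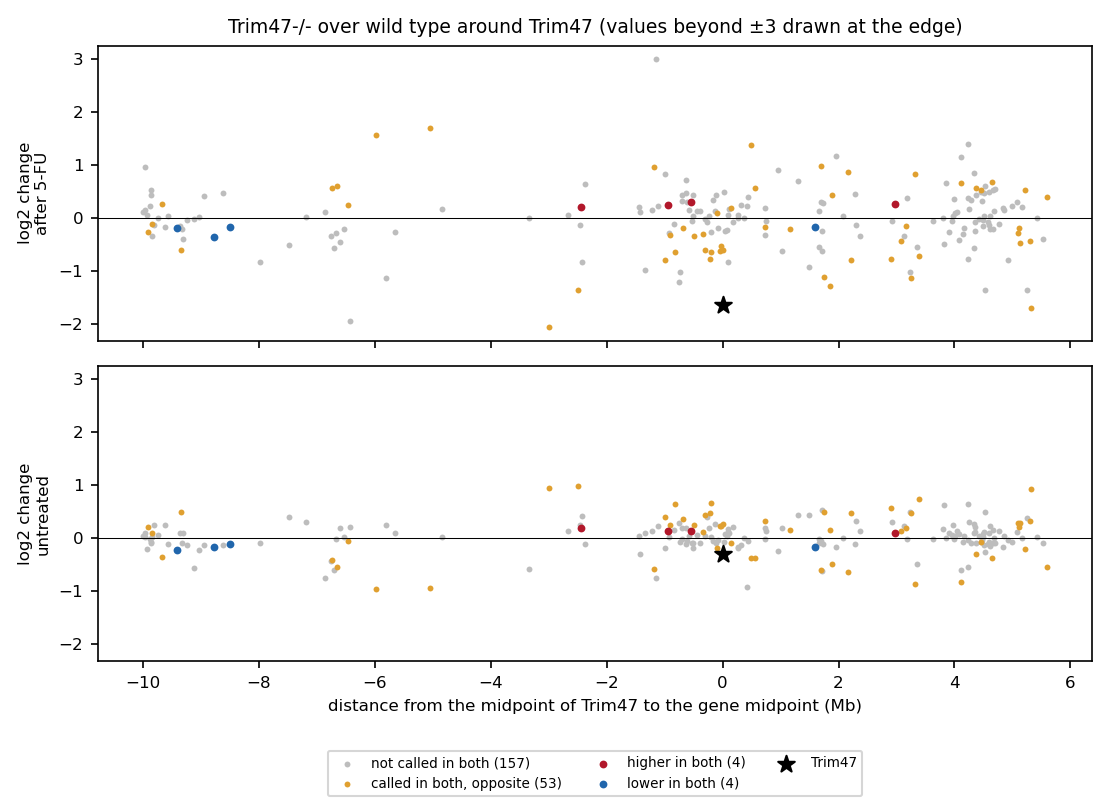
Log2 change, Trim47-/- over wild type, after 5-FU (upper panel) and untreated (lower panel) of the tested genes within 10 Mb of Trim47, by distance from it. The 4 higher and 4 lower members are scattered over the region, and the star marks Trim47, at -1.64 after 5-FU and -0.31 untreated.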

How the data were processed

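Gene counts of 12 samples were used. The deposited table also held FPKM values by the authors, which were not used for tests. The deposited counts were made with HISAT2 and StringTie on GRCm38, per the submitters' processing notes, which also name CASAVA 1.8 and edgeR; versions and options of the others were not given in the sources used here. Paired-end stranded poly(A) libraries were sequenced, per the labels' protocols. From the counts as deposited, genes passing edgeR's default expression filter were scaled by TMM and fitted with 1 mean per group (edgeR 4.0.16, R 4.3.3). Contrasts were the genotype difference in each state, their average and their interaction. Alternatives were DESeq2 1.42.0 size factors and test, no filter, a replicate block, each state alone, an additive model, summed groups, stricter thresholds and each sample left out in turn. The model code was tested on simulated data. GENCODE M21 gave gene classes to 16296 of the tested genes, by identifier.

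The members and the gene lists were chosen with earlier results of these data known, and lists are described by counts with no test. Genes are named by this rule: the 12 higher and 12 lower members of largest change (the smaller of the 2 states) with at least 10 CPM and no overlap of genotypes within a state, the 5 most abundant members of each direction with at least 1.5-fold in each state, up to 4 members per list, and members within 1 Mb of Trim47. Gene models, clones, pseudogenes and immunoglobulin segments were left out of the rule, and other members are named as examples of a list. The deposited counts limit precision at low levels.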

Additional observations from a re-analysis of the deposited data

Results flagged for a closer look

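The genotype effect differed between the states for 8957 of 16319 genes by the interaction test (edgeR, adjusted p under 0.05). Among the members named for the size or abundance of their change, 10 shared a direction but differed in size, given here as the log2 change after 5-FU minus that untreated. The rise in Trim47-/- cells was larger after 5-FU for Mn1 (1.07), Ltf (0.44), Ngp (0.40), Lcn2 (0.19) and Camp (0.19). The fall was larger after 5-FU for Epx (-0.64), Prg2 (-0.36), Selp (-0.33) and Ptgs2 (-0.17), and larger in untreated cells for Cxcl2 (0.23).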

How the results depend on the processing

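With DESeq2's test 361 genes shared a direction (175 higher), beside 583 (348 higher). With each state fitted alone 194 were higher. The additive model, in which disagreement between states enters the spread, called 755 average effects (431 higher, 324 lower), and 511 of these were members. With samples summed by group, on 1 residual degree of freedom, it called 0 (0 higher, 0 lower). An unadjusted p under 0.05 was found for 126 genes (0.772% of those tested), a smaller share than that threshold. Trim47 then had an average log2 change of -0.97 that no longer passed. At an adjusted p of 0.01 the average effect called 3436 genes (1908 higher, 1528 lower), the untreated effect 3391, shared directions 280 (160 higher, 120 lower) and opposite ones 2113. At 1.5-fold these were 631 (183, 448), 1373, 82 (20, 62) and 657, with 3301 after 5-FU and 4977 for the interaction.

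Of the genes named, DESeq2's test ended a call of Canx, Mcm5, Trim28, Gp1bb, Pf4, Pax5, Mzb1, Trim65, mt-Nd3, mt-Nd6 and mt-Atp8 (adjusted p in the lost state 0.0531 to 0.269). DESeq2 size factors ended those of Trim28, Trim65, mt-Nd3, mt-Nd6 and mt-Atp8 (0.0507 to 0.0999). Without the low-count filter Ankrd12, Trmt6, Zbtb37, Zfp422, S100a9, Gp5, Pax5, Mzb1, Trim65, mt-Atp8 and mt-Nd6 lost a call (0.051 to 0.093). The replicate block ended a call of Pf4, Zfp422, Mzb1 and Trim65 (0.0533 to 0.0735). With each state fitted alone Mcm5, Trim28, Canx, Trmt6, Pax5, Mzb1, mt-Nd3 and mt-Nd6 lost a call (0.0532 to 0.15). At an adjusted p of 0.01 members remained in the mitochondrial (10), neutrophil (7), DNA replication (10), immediate early (6), eosinophil (5) and platelet (2) lists. At 1.5-fold these were 0, 2, 0, 0, 2 and 2.

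The cause of these moves was not tested, apart from fewer genes passing stricter thresholds. Leaving out 1 sample gave 225 to 335 higher members, the fewest without 5-FU-treated wild-type replicate 3, where 426 of the 583 members remained. In the main fit the median untreated log2 change over all genes was 0.028. The median shift of the untreated log2 changes was -0.017 with DESeq2 size factors and -0.022 with each state fitted alone. It was -0.020 without 5-FU-treated wild-type replicate 3, and 0.00038 to 0.0045 without any other sample. The largest shift after 5-FU was -0.033, without the low-count filter. The median smaller change of the higher members was 0.15, so shifts of this size can move weak calls.

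Same-numbered samples of different groups had residual correlations of -0.20 to 0.14, over 0.1 in 5 of 18 pairs. For differently numbered samples these were -0.18 to 0.23, over 0.1 in 6 of 36 pairs. The numbers were not taken as pairs, and these correlations do not settle whether they are. With the replicate block 539 genes shared a direction (328 higher, 211 lower), 514 of them members. Low counts limit the platelet, eosinophil ribonuclease and immunoglobulin values.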
